A study of Mus musculus with 6 samples.

Results

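Tfap2e, Nxph4, Emb, Rhcg, Hspb8, Tekt2, Iqcc and Nkain2 are 8 genes that were lower in every cKO library than in every WT library, to about 50% of the WT mean or less. They were listed apart from the pathways otherwise named for the study, though Hspb8 is a heat shock gene and Tekt2 a cilium gene. They are 8 of 12041 gene symbols in the table and 8 of the 9359 symbols tested. They were selected on their measured cKO and WT levels, so those levels are given as a description with no test. The cKO libraries came from embryos with a conditional knockout of both Hdac1 and Hdac2, and the WT libraries from wild type embryos, with 3 libraries in each group. All were C57BL/6 mice at embryonic day 12.5, the tissue was cortex, and total RNA was sequenced. The Cre driver, the deleted exons, the litters and the strandedness of the libraries are not stated here. The table's columns HM-5, HM-13 and HM-16 were read as cKO and HC-1, HC-8 and HC-10 as WT from their letters alone. No label says whether each library is its own embryo; p-values therefore measure only how these libraries differ among themselves, which may be technical.

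HDAC1 and HDAC2 remove acetyl groups from histones as parts of corepressor complexes, and both are expressed in the progenitors that line the ventricle of the embryonic cortex. The 8 genes have no pathway in common. AP-2 epsilon, the product of Tfap2e, is a transcription factor known in the mouse from the olfactory bulb and the vomeronasal organ. Nxph4 encodes a neurexophilin, one of a family of secreted glycoproteins that bind alpha-neurexins. Embigin, from Emb, is an immunoglobulin-type membrane glycoprotein that accompanies monocarboxylate transporters at the cell surface. Rhcg is an ammonium transporter best known from the kidney collecting duct, and Nkain2 is a membrane protein that interacts with the sodium-potassium ATPase. Inside the cell, Hspb8 is a small heat shock protein that works with the cochaperone BAG3, Tekt2 is a tektin of ciliary and flagellar microtubules, and Iqcc has an IQ motif, a kind of motif that can bind calmodulin.

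The promoter sequences of 4 of the genes are shown, because 3 of them (Tfap2e, Tekt2 and Iqcc) share a chromosome region with Hdac1 and the other (Hspb8) belongs to a family with a known promoter element. RefSeq sequences of build GRCm38.p6, from 250 bases before to 50 bases after the start, were matched for 7 of the 8 genes, all but Nxph4. They run 5′ to 3′ on the gene's strand, which is the minus strand for these 4. Capitals mark matches on either strand to GGGCGG (the GC box), GTTGCC (a partial site of RFX factors, which act on cilium genes), GAANNTTC (the heat shock element core), CAGCTG (an E-box) and GCCNNNGGC (an AP-2 site), and matches that touch run together. The windows are chr4:126736220-126736519 for Tfap2e, chr4:126325639-126325938 for Tekt2, chr4:129619044-129619343 for Iqcc and chr5:116422815-116423114 for Hspb8.
Tfap2e: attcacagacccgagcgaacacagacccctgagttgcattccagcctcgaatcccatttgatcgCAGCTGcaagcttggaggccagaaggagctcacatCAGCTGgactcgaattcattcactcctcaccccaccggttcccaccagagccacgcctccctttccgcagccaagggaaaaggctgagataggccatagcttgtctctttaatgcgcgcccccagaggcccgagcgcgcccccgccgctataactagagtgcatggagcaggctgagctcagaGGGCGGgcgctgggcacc
Tekt2: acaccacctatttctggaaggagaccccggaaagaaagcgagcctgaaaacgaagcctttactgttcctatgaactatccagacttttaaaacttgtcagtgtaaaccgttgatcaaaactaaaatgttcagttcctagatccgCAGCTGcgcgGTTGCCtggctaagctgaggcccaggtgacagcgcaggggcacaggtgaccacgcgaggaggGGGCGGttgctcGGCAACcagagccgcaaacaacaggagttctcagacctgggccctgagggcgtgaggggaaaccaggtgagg
Iqcc: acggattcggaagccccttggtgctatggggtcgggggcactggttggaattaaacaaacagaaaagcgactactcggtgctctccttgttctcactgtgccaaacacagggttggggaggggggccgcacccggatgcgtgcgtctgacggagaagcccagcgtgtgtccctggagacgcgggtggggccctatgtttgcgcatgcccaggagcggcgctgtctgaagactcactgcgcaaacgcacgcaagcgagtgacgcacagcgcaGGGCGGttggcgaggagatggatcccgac
Hspb8: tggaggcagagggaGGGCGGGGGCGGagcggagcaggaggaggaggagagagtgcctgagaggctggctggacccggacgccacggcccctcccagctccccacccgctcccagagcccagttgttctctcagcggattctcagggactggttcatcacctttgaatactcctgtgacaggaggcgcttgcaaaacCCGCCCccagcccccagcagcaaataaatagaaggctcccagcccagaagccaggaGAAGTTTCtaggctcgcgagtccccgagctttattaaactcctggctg
The GC box was present in 7 of 7 members' windows and in 67.5% of the 6267 windows of tested genes. GTTGCC occurred 2 times in the Tekt2 window and in no other of the 7, against 12.9% of the windows of tested genes with a match. GAANNTTC was found in the Hspb8 window alone among the 7, against 5.73%. CAGCTG was found in 3 of 7 (Tfap2e, Rhcg and Tekt2), against 14.5%, and GCCNNNGGC in 2 of 7 (Rhcg and Nkain2), against 26.2%. The windows held 17 CpG for Tfap2e, 14 for Tekt2, 25 for Iqcc, 13 for Hspb8 and 43 for Nkain2, where the median over tested genes was 22. A match is a description of the letters and does not show that a factor binds there.

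The targeted genes were low in every cKO library. Hdac1 had 51.3 ± 8.46 FPKM in cKO and 201 ± 9.82 FPKM in WT, and Hdac2 had 48.9 ± 12.1 FPKM in cKO and 207 ± 69.2 FPKM in WT (SD, n = 3 each). FPKM here scales fragments to transcript length and to a size factor for each library. That factor did not follow the read total, with 0.804 for HM-13 (11473715 reads) and 1.06 for HM-5 (10023061 reads). The whole reads recovered from the table totalled 9712556 to 11473715 in cKO libraries and 10345264 to 11922665 in WT libraries. Ribosomal RNA (Rn45s) took 29.7% of the reads of HM-13, against 0.506% to 2.48% in the other 5 libraries. Of 10 cortex markers 9 have a row, and their summed level was 1585 to 1755 FPKM in cKO and 1668 to 1963 FPKM in WT.

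Tfap2e lay furthest below its WT level. It had 0.292, 0.384 and 0.314 FPKM in HM-5, HM-13 and HM-16 (cKO), against 3.82, 3.56 and 6.03 FPKM in HC-1, HC-8 and HC-10 (WT). The highest cKO library, HM-13, stood at 10.8% of the lowest WT library, HC-8. The mean was 0.330 ± 0.0479 FPKM in cKO and 4.47 ± 1.36 FPKM in WT (SD, n = 3 each), which puts cKO at 7.38% of WT. Each cKO value rests on 7 reads, against 91, 96 and 136 reads in the WT libraries, so counting alone gives a coefficient of variation of 37.8% in cKO, and the order of the cKO libraries carries no information. In bulk tissue, fewer cells that express a gene and less RNA per cell cannot be told apart.

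**Figure D1:**
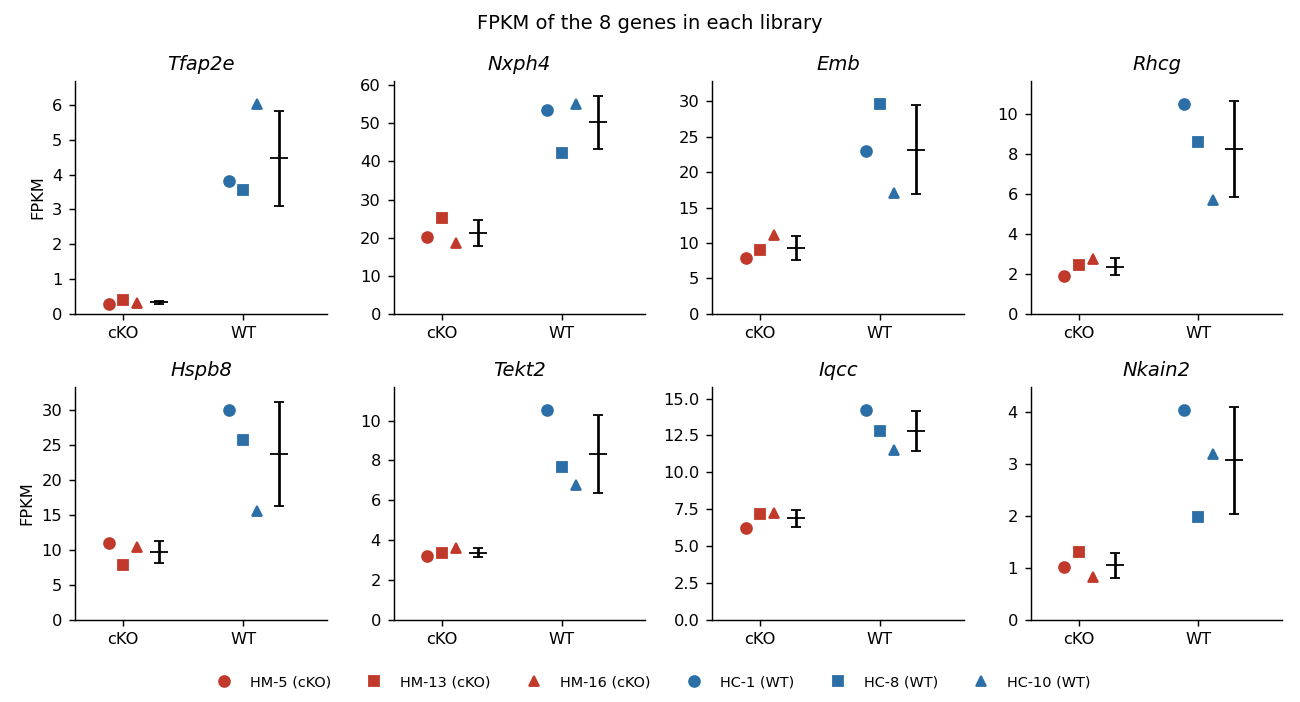
FPKM of each of the 8 genes in each library (vertical axes from 0, with their own scales), with the 3 cKO libraries in red left of the 3 WT libraries in blue; black bars give the mean and SD of each group. No panel shows overlap, which is how the genes were chosen, and the cKO mean ranges from 7.38% of WT (Tfap2e) to 53.6% (Iqcc).

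Among the secreted and surface proteins, Nxph4 was the most abundant. It had 20.1, 25.0 and 18.6 FPKM in HM-5, HM-13 and HM-16 (cKO), against 53.6, 42.2 and 55.0 FPKM in HC-1, HC-8 and HC-10 (WT). HM-13 was the high cKO library and HC-8 the low WT library, and the first stood at 59.3% of the second. The cKO mean of 21.2 ± 3.37 FPKM was 42.3% of the WT mean of 50.2 ± 7.04 FPKM. In WT, 86.6% of symbols had a lower mean than Nxph4, the highest such share among the 8 genes.

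Emb had 7.82, 9.03 and 11.1 FPKM in HM-5, HM-13 and HM-16 (cKO), against 23.0, 29.6 and 17.0 FPKM in HC-1, HC-8 and HC-10 (WT). The WT libraries differed 1.74-fold from lowest to highest and the groups did not overlap, with HM-16 at 65.4% of HC-10. The mean was 9.33 ± 1.68 FPKM in cKO and 23.2 ± 6.28 FPKM in WT, or 40.2% of WT.

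Rhcg, the ammonium transporter, had a WT mean above that of 60.8% of symbols. It had 1.90, 2.44 and 2.72 FPKM in HM-5, HM-13 and HM-16 (cKO), against 10.5, 8.56 and 5.66 FPKM in HC-1, HC-8 and HC-10 (WT). HC-1 was 1.85-fold above HC-10, yet HM-16, the highest cKO library, reached only 48.1% of HC-10. The mean was 2.36 ± 0.416 FPKM in cKO and 8.23 ± 2.42 FPKM in WT, or 28.6% of WT, from 44 to 60 reads per cKO library and 126 to 246 reads per WT library.

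Nkain2 had the lowest WT level of the 8 genes and spans 1201 kb of the genome. Its values were 1.02, 1.30 and 0.828 FPKM in HM-5, HM-13 and HM-16 (cKO), against 4.02, 1.98 and 3.19 FPKM in HC-1, HC-8 and HC-10 (WT). HC-1 was 2.03-fold above HC-8, the widest spread among the WT libraries for any of the 8, and HM-13 stood at 65.8% of HC-8. The mean was 1.05 ± 0.239 FPKM in cKO and 3.07 ± 1.03 FPKM in WT, or 34.3% of WT, from 28 to 37 reads per cKO library and 81 to 145 reads per WT library.

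Of the intracellular proteins, the chaperone gene Hspb8 had 10.9, 7.86 and 10.3 FPKM in HM-5, HM-13 and HM-16 (cKO), against 29.9, 25.7 and 15.5 FPKM in HC-1, HC-8 and HC-10 (WT). HC-10 was the low WT library, and HM-5 stood at 70.3% of it, the narrowest gap of the 8. The mean was 9.70 ± 1.62 FPKM in cKO and 23.7 ± 7.41 FPKM in WT, or 40.9% of WT.

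Tekt2, the tektin gene, had 3.19, 3.33 and 3.61 FPKM in HM-5, HM-13 and HM-16 (cKO), against 10.5, 7.65 and 6.77 FPKM in HC-1, HC-8 and HC-10 (WT). The cKO libraries lay close together, while HC-1 was 1.55-fold above HC-10, and the highest cKO value was 53.3% of the lowest WT value. The mean was 3.38 ± 0.214 FPKM in cKO and 8.31 ± 1.95 FPKM in WT, or 40.6% of WT.

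Iqcc lay nearest to its WT level. It had 6.23, 7.15 and 7.26 FPKM in HM-5, HM-13 and HM-16 (cKO), against 14.2, 12.8 and 11.5 FPKM in HC-1, HC-8 and HC-10 (WT). Its coefficient of variation was 8.20% in cKO and 10.6% in WT, the lowest WT value of the 8. The groups did not overlap, with HM-16 at 63.2% of HC-10. The mean was 6.88 ± 0.564 FPKM in cKO and 12.8 ± 1.36 FPKM in WT, or 53.6% of WT. Iqcc overlaps Tmem234, which lies on the opposite strand, and without a stated strand setting the reads of the 2 genes cannot be told apart where they overlap.

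In the whole table, 19.6% of tested symbols had all cKO values below all WT values. With a cKO mean of at most 50% of WT as well, the share was 0.887%, or 83 genes, 7 of them members. With the percentage of Iqcc as the limit it was 1.12%, or 105 genes, 95 of them neither members nor targeted genes. Just inside that limit were Abcb9 at 53.3% and 9230116N13Rik at 53.5% of WT. Just outside it were Ints12, with 12.4 ± 0.827 FPKM in cKO and 23.1 ± 1.64 FPKM in WT (53.8%), and Fgfbp3, with 15.3 ± 2.11 FPKM in cKO and 28.3 ± 0.221 FPKM in WT (54.0%). The 8 genes are thus a choice from a longer list, and these shares, fixed by the choice, are no result about them. All 8 passed the filter on low values (at least 1 FPKM in at least 3 libraries). Tfap2e passed through its WT libraries alone, Nkain2 with 2 of 3 cKO libraries at that level, and the other 6 were at or above it in every library.

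**Figure D2:**
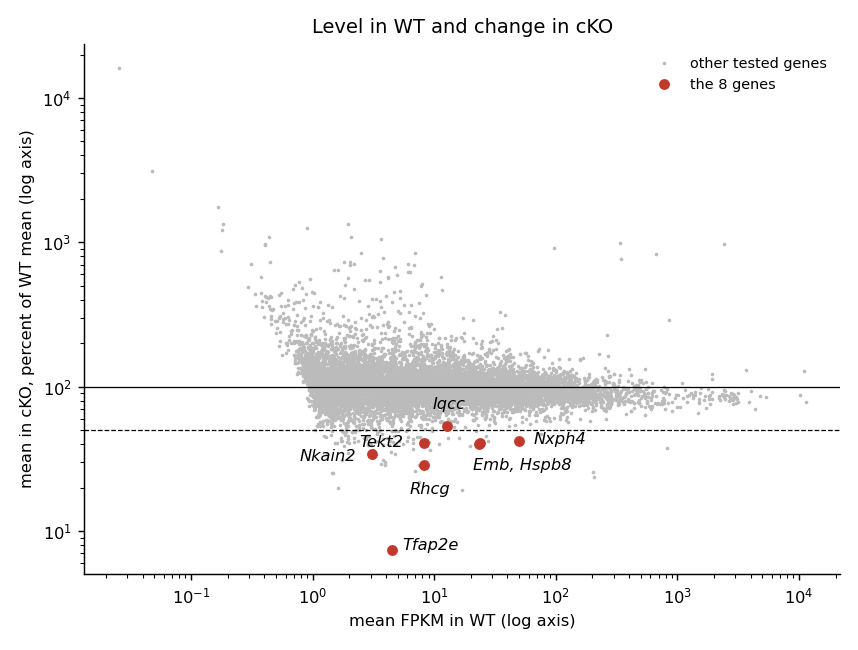
Each tested gene by its mean FPKM in WT (horizontal, log axis) and its cKO mean as a percent of the WT mean (vertical, log axis), with the 8 genes in red, a solid line at equal means and a dashed line at 50%. The 8 genes span WT means from 3.07 FPKM (Nkain2) to 50.2 FPKM (Nxph4), and Tfap2e lies lowest among them at 7.38%.

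By its median, the spread within a group was wider for these genes than over all genes, though not for each gene. The coefficient of variation over WT libraries ran from 10.6% (Iqcc) to 33.4% (Nkain2), with a median of 28.3%, against a median of 10.2% over all genes tested. Over cKO libraries it ran from 6.33% (Tekt2) to 22.8% (Nkain2), with a median of 16.3%, against 9.93% over all genes. Tekt2 and Iqcc (8.20%) were under that median in cKO. HM-16 was the highest cKO library for Emb, Rhcg, Tekt2 and Iqcc, HM-13 (the library rich in Rn45s) for Nxph4 and Nkain2, and HM-5 for Hspb8, leaving aside Tfap2e with its equal reads. HC-10 was the lowest WT library for 5 genes (Emb, Rhcg, Hspb8, Tekt2 and Iqcc) and HC-8 for the other 3.

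Markers of neighbouring tissue varied within the groups. Of 9 markers of choroid plexus and cortical hem, tissue beside the cortex that bears motile cilia, 7 have a row and 5 were tested, and 0 changed by limma's adjusted test, 0 by voom and 0 at an unadjusted p under 0.05. Their summed level was 89.0, 90.3 and 59.8 FPKM in HM-5, HM-13 and HM-16 (cKO), against 156, 194 and 8.23 FPKM in HC-1, HC-8 and HC-10 (WT). Ttr, the transthyretin gene of choroid plexus, was at 0.0769 FPKM in HC-10, against 27.1 to 68.4 FPKM in cKO libraries and 118 and 145 FPKM in the other WT libraries. HC-10 was thus the poorest library in these markers. It was the lowest WT library for 5 of the 8 genes and the highest for 2 (Tfap2e and Nxph4). How often HC-10 was the lowest WT library over all tested genes is not given here, and a link to these markers was not tested.

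Olfactory mitral cells, a site of Tfap2e expression in the mouse, had 4 of 5 markers with a row, whose sum was 8.09 to 15.0 FPKM in cKO and 8.40 to 16.2 FPKM in WT. Of the 3 tested, Cdhr1 rose (3.60 ± 0.0443 FPKM in cKO and 1.21 ± 0.290 FPKM in WT; log2 fold change 1.06, SE 0.13, limma adjusted p = 0.00306). Barhl2 had 3.69 ± 3.03 FPKM in cKO and 8.69 ± 3.72 FPKM in WT (-1.14, SE 0.46, limma adjusted p = 0.122), and Slc17a7 had 2.502 ± 0.944 FPKM in cKO and 2.48 ± 0.325 FPKM in WT (-0.02, adjusted p = 0.948). Tbx21, under the filter, had 0.795 ± 0.280 FPKM in cKO and 0.173 ± 0.135 FPKM in WT. All its cKO values lay above all its WT values, from 1 to 30 reads per library. Ventral telencephalon had 3 of 8 markers with a row, with sums of 1.46 to 18.2 FPKM in cKO and 4.52 to 45.5 FPKM in WT. Microglia had 4 of 7, with 46.8 to 49.6 FPKM in cKO and 31.5 to 35.8 FPKM in WT, and Tyrobp (log2 fold change 0.68, limma adjusted p = 0.0150) and C1qb (0.47, adjusted p = 0.0170) rose. The Tyrobp call held in 5 of 6 fits that left out a library (highest adjusted p 0.0625) and that of C1qb in 3 of 6 (0.0703), and neither held with scaling to library totals (0.198 and 0.506). Meninges had 8 of 8, with 258 to 414 FPKM in cKO and 217 to 471 FPKM in WT. The part of these tissues in the levels of the 8 genes was not tested.

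The rule for choosing the genes names levels and not position. How these 8 were picked from the 105 genes within the limit of Iqcc is not stated here, so whether position played a part is not known. Of the 8, 4 start within 5 Mb of a targeted gene. Tfap2e (chromosome 4, 126716006 to 126736240, GRCm38), Tekt2 (126322121 to 126325688) and Iqcc (129615126 to 129619099) lie on the chromosome of Hdac1 (129516104 to 129542713). They start 2.81 Mb, 3.22 Mb and 76.4 kb from the start of Hdac1, and Tfap2e and Tekt2 start 0.411 Mb from each other. Nkain2 (chromosome 10, 31689310 to 32890462) starts 4.08 Mb from Hdac2 (36974544 to 37001889), and Nxph4 (127525473 to 127534559), on the same chromosome, is 90.6 Mb away from it. Emb (chromosome 13, 117208536 to 117274415), Rhcg (chromosome 7, 79593363 to 79617657) and Hspb8 (chromosome 5, 116408491 to 116422864) lie on other chromosomes. Of the genes with no overlap and a percent of WT at or under that of Iqcc, 82 have a position and 6 of these (7.32%) start within 5 Mb of a targeted gene, against 115 of 8171 tested genes (1.41%). The 6 are the 4 members, the small nucleolar RNA gene Snora44 and the pseudogene Rps15a-ps4, so the 7.32% rests mainly on the members. Both totals include the targeted genes, which are not counted as near. No test was made of the difference between 7.32% and 1.41%, since the window was set with the positions of some of the 8 genes known.

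The other genes in these windows were not chosen for their change and were tested. Within 5 Mb of Hdac1, 19 of 88 non-member genes changed (7 rose and 12 fell), which is 21.6%, against 18.0% of all tested symbols. Within 5 Mb of Hdac2, 3 of 23 changed (2 rose and 1 fell), which is 13.0%. The median log2 fold change was -0.08 around Hdac1 and -0.02 around Hdac2, against -0.01 over all genes. All cKO values lay below all WT values for 24 (27.3%) of the genes around Hdac1 and 6 (26.1%) of those around Hdac2, against the 19.6% of all genes. The count around Hdac1 changed with the libraries used. It was 5 without HM-5, 4 without HM-16, 10 without HC-1 and 9 without HC-10, but 16 without HM-13 and 19 without HC-8. The count over all genes was also lower without HM-5, HM-16, HC-1 or HC-10 (511, 545, 1103 and 888, against 1685 with all libraries).

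**Figure D3:**
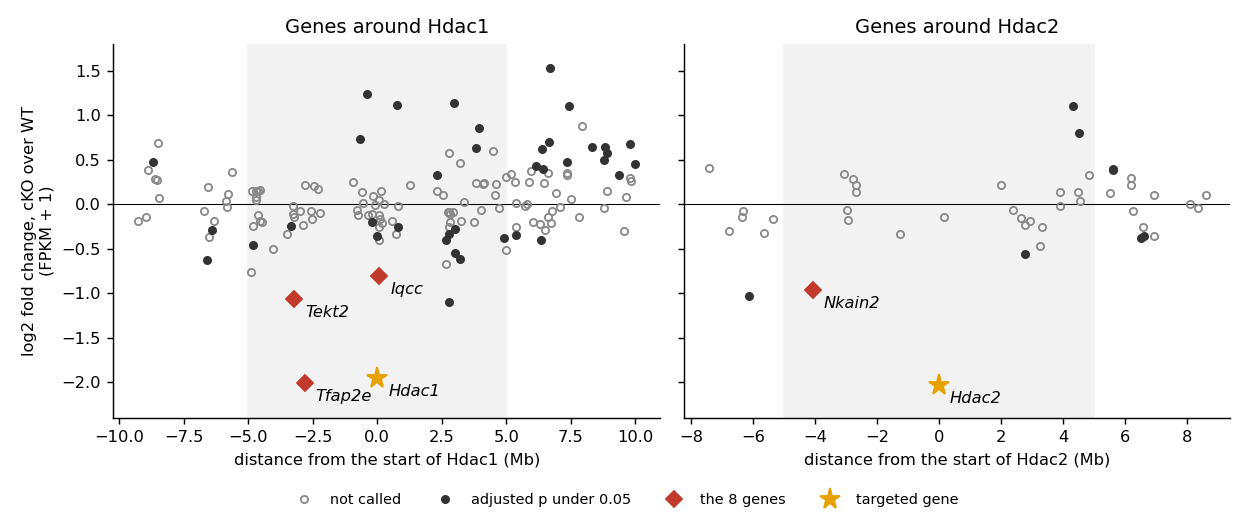
Log2 fold change of cKO over WT, on the log2(FPKM + 1) scale, against distance from the start of Hdac1 (left) or Hdac2 (right) in Mb, for tested genes within 10 Mb; filled points passed an adjusted p of 0.05, the shaded band is the 5 Mb window, red diamonds are members and stars the targeted genes. Genes in the 5 Mb window of Hdac1 lie on both sides of 0, with 7 that rose and 12 that fell.

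Around Hdac1, Fndc5, the precursor gene of irisin, rose (3.99 ± 0.164 FPKM in cKO and 1.12 ± 0.161 FPKM in WT; log2 fold change 1.24, SE 0.11, limma adjusted p = 0.0012). It starts at -0.406 Mb from Hdac1, where the minus marks the lower coordinates, the side of Tfap2e and Tekt2. Sesn2, a stress-induced sestrin, rose (log2 fold change 1.14, limma adjusted p = 0.00611), and so did Trnp1, a nuclear protein gene known from cortical radial glia (0.86, adjusted p = 0.0117). Ythdf2, a reader of N6-methyladenosine, fell (53.7 ± 0.724 FPKM in cKO and 71.0 ± 0.550 FPKM in WT; log2 fold change -0.40, limma adjusted p = 0.00441). Sf3a3, a splicing factor gene, fell too (-0.46, adjusted p = 0.00462). Marcksl1, at -0.0291 Mb, fell to 1167 ± 24.5 FPKM in cKO, against 1499 ± 29.3 FPKM in WT (log2 fold change -0.36, limma adjusted p = 0.0116), a call that was lost without HM-5 (adjusted p = 0.0658) or HM-16 (0.0595). Around Hdac2, Fig4, a phosphoinositide phosphatase gene, rose (36.7 ± 0.527 FPKM in cKO and 16.6 ± 1.20 FPKM in WT; log2 fold change 1.10, limma adjusted p = 0.000609). E130307A14Rik fell (-0.56, adjusted p = 0.00501), and Ppil6 rose (0.80, adjusted p = 0.0292), though not without HM-5 (0.107), HM-16 (0.0957) or HC-8 (0.0535).

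The genes next to each member were tested in the same way. Of 17 nearest genes with a row, 13 were tested and 1 changed, a fall (7.69%), against 18.0% of all tested symbols changed and 8.39% lower. An unadjusted p under 0.05 was found for 6 of the 13. Such p-values were common over all tested symbols, since a limma p of 0.0503 (Adprhl2) had an adjusted p of 0.146. Their share over all symbols is not given here, so the 6 are not read as an excess. All cKO values lay below all WT values for 5 of the 13 tested (Ndufa4l2, Mrps30, Adprhl2, Dcdc2b and Ccdc28b), against 19.6% of all tested symbols. That is a higher share, but it rests on few genes, Dcdc2b and Ccdc28b both lie beside Iqcc, and the difference was not tested. The gene that fell was Mrps30, a mitochondrial ribosomal protein gene 1104 kb from Emb, with 44.3 ± 1.74 FPKM in cKO and 56.8 ± 2.56 FPKM in WT (log2 fold change -0.35, SE 0.06, limma adjusted p = 0.0117, and 0.0621 without HM-5). Iqcc lies in a tight cluster. Tmem234, which overlaps it, had 5.80 ± 0.796 FPKM in cKO and 5.70 ± 1.93 FPKM in WT (log2 fold change 0.05, SE 0.20, limma adjusted p = 0.882). Ccdc28b, 0.175 kb away, had 1.08 ± 0.142 FPKM in cKO and 1.75 ± 0.257 FPKM in WT (log2 fold change -0.40, SE 0.12, adjusted p = 0.0578). Dcdc2b, 0.869 kb away, had 30.6 ± 1.74 FPKM in cKO and 36.7 ± 3.59 FPKM in WT (-0.25, SE 0.09, limma adjusted p = 0.0849), and passed without HC-8 (0.0479).

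Adprhl2 lies 418 bases from Tekt2 and had 51.5 ± 2.25 FPKM in cKO and 56.8 ± 1.40 FPKM in WT (log2 fold change -0.14, SE 0.06, limma adjusted p = 0.146), where Tekt2 stood at 40.6% of WT. Psmb2, a proteasome subunit gene 6.29 kb from Tfap2e, had 139 ± 10.7 FPKM in cKO and 165 ± 19.4 FPKM in WT (log2 fold change -0.24, SE 0.10, adjusted p = 0.136), and passed without HC-8 (0.0400). Lrp1, an endocytic receptor gene 3.60 kb from Nxph4, had 37.8 ± 7.93 FPKM in cKO and 26.0 ± 2.77 FPKM in WT (0.50, SE 0.16, limma adjusted p = 0.0637), and it passed without HM-13 (0.00853) and by voom (0.0399). Ndufa4l2, on the other side of Nxph4, had 4.18 ± 0.305 FPKM in cKO and 5.68 ± 1.08 FPKM in WT (-0.36, adjusted p = 0.112). Srrm4os, 15.9 kb from Hspb8, had 4.64 ± 1.62 FPKM in cKO and 4.56 ± 1.26 FPKM in WT (0.01, adjusted p = 0.990), and Rnf217, 80.1 kb from Nkain2, had 11.3 ± 0.665 FPKM in cKO and 13.0 ± 2.14 FPKM in WT (-0.17, adjusted p = 0.364). The other 3 tested neighbours also missed the threshold of limma. They are AU040320, 17.3 kb from Tfap2e, at 119% of WT (0.21, adjusted p = 0.510), Mir9-3, 88.0 kb from Rhcg, at 119% (0.25, adjusted p = 0.445), and Prkab1, 384 kb from Hspb8, at 92.3% (-0.11, adjusted p = 0.407). Those under the filter were Isl1 beside Emb (0.173 FPKM in cKO and 0.635 FPKM in WT), Pex11a beside Rhcg (1.03 FPKM in cKO and 0.555 FPKM in WT), Ago1 beside Tekt2 (0.222 FPKM in cKO and 0.258 FPKM in WT) and Clvs2 beside Nkain2 (0.239 FPKM in cKO and 0.610 FPKM in WT).

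Lists of relatives and partners of the 8 genes, the members themselves left out, held 137 genes, of which 87 have a row and 60 were tested. Of these, 7 rose and 3 fell, or 16.7%, against 18.0% of all tested symbols (9.62% higher and 8.39% lower). Voom called 12. The count was 5 without HM-5 or HM-16 and 6 without HC-1.

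**Figure D4:**
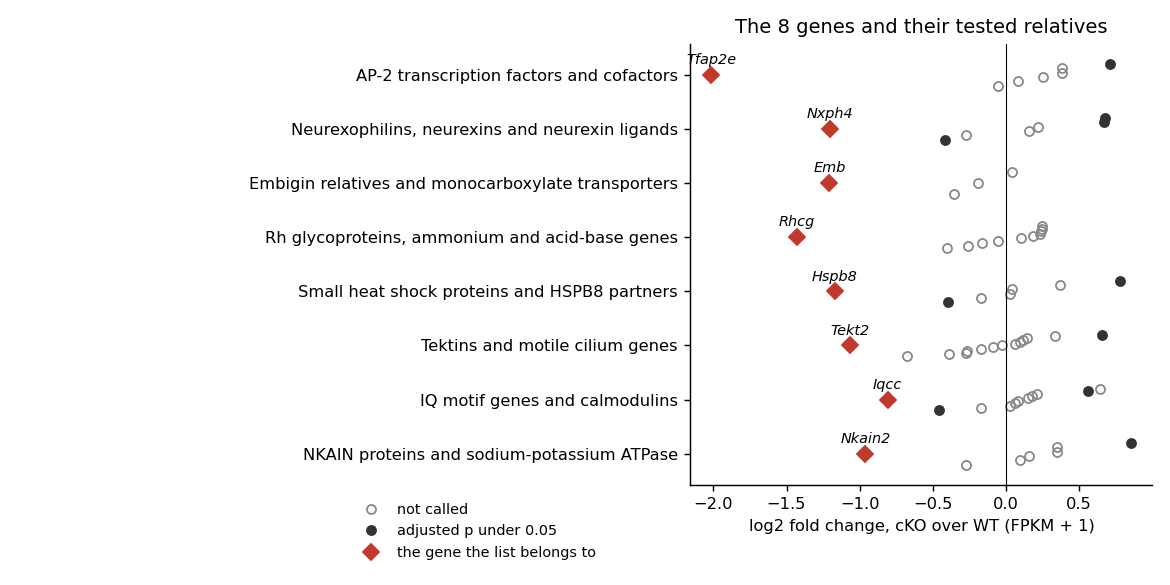
Log2 fold change of cKO over WT, on the log2(FPKM + 1) scale, for tested genes of the 8 lists; filled points passed an adjusted p of 0.05, open points did not, and the red diamond is the gene that each list belongs to. In each list the member lies to the left of its tested relatives, as the members were chosen to be low, and 7 relatives rose and 3 fell.

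Of the AP-2 list (6 tested of 11; 1 rose, 0 fell, median log2 fold change 0.32), Cited1, a transcriptional coactivator that can work with AP-2, rose to 2.22 ± 0.260 FPKM in cKO, against 0.961 ± 0.139 FPKM in WT (log2 fold change 0.71, SE 0.12, limma adjusted p = 0.0084). Tfap2c, the paralog AP-2 gamma, had 3.77 ± 0.716 FPKM in cKO and 2.995 ± 0.599 FPKM in WT (0.25, SE 0.17, adjusted p = 0.321). Of the neurexophilin list (6 tested of 17; 2 rose, 1 fell, median 0.19), Clstn3, a synaptic calsyntenin that binds neurexins, rose to 21.2 ± 2.25 FPKM in cKO, against 12.8 ± 0.462 FPKM in WT (0.68, SE 0.09, limma adjusted p = 0.00492). Nlgn2, a neuroligin of inhibitory synapses, rose (log2 fold change 0.67, adjusted p = 0.0118, but 0.0617 without HM-5). Cbln1, a secreted neurexin ligand known from the cerebellum, fell (7.11 ± 0.352 FPKM in cKO and 9.86 ± 0.808 FPKM in WT; -0.42, limma adjusted p = 0.0254), a call that did not hold without HM-5 (0.0751), HM-16 (0.0854), HC-1 (0.0648) or HC-10 (0.0886). Nxph3, the paralog of Nxph4, had 1.94 ± 0.619 FPKM in cKO and 1.61 ± 0.364 FPKM in WT (0.16, adjusted p = 0.589).

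For the embigin list, 3 genes of 8 were tested and 0 changed by limma or voom (0 at an unadjusted p under 0.05; median -0.19). Bsg, the basigin paralog of embigin, had 1.93 ± 0.437 FPKM in cKO and 2.35 ± 0.559 FPKM in WT (log2 fold change -0.19, SE 0.17, limma adjusted p = 0.469). Ldhb, a lactate dehydrogenase subunit gene, had 2.95 ± 1.17 FPKM in cKO and 3.92 ± 0.326 FPKM in WT (-0.36, adjusted p = 0.279). The row kept for Bsg rests on 22 to 54 reads per library and that for Ldhb on 26 to 59. Reads of these genes placed elsewhere would be missed. Of the Rh glycoprotein and acid-base list (10 tested of 15), 4 had an unadjusted p under 0.05, but 0 passed the adjusted test of limma or of voom (median 0.14). The share of all tested symbols at that unadjusted p is not given here. Car4, a carbonic anhydrase gene, had 0.965 ± 0.143 FPKM in cKO and 1.602 ± 0.290 FPKM in WT (-0.40, SE 0.13, limma adjusted p = 0.0665). The paralog Rhag, known from red cells, had 4.56 ± 1.08 FPKM in cKO and 3.65 ± 0.537 FPKM in WT (0.25, adjusted p = 0.360). Its partner Rhd had 2.84 ± 0.673 FPKM in cKO and 2.31 ± 0.979 FPKM in WT (0.24, adjusted p = 0.519). Glud1, which encodes the ammonium-forming glutamate dehydrogenase, had 99.9 ± 5.18 FPKM in cKO and 87.7 ± 3.39 FPKM in WT (0.18, adjusted p = 0.0814), and passed without HM-13 (0.0473).

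In the small heat shock list (6 tested of 18; 1 rose, 1 fell, median 0.04), Hspa1b, an inducible HSP70 gene, rose (2.46 ± 0.590 FPKM in cKO and 1.004 ± 0.146 FPKM in WT; log2 fold change 0.78, SE 0.15, limma adjusted p = 0.0148). It shares most of its sequence with Hspa1a, so its reads may be split between them, and the call was lost without HM-16 (0.0535). The row kept for Hspa8, the constitutive HSC70 gene, fell (1.23 ± 0.155 FPKM in cKO and 1.94 ± 0.112 FPKM in WT, limma log2 fold change -0.40, adjusted p = 0.0437), but in none of the 6 fits that left out a library (highest adjusted p 0.139). That row rests on 35 to 83 reads per library, and reads of the gene placed elsewhere would be missed, so it may not give the level of the gene. Bag3, the partner of Hspb8, had 8.16 ± 2.59 FPKM in cKO and 5.90 ± 0.550 FPKM in WT (0.37, SE 0.21, adjusted p = 0.259). In the tektin and motile cilium list (13 tested of 36; 1 rose, 0 fell, median -0.02), Spag16, a gene of the axoneme's central apparatus, rose (1.82 ± 0.328 FPKM in cKO and 0.798 ± 0.306 FPKM in WT; 0.66, limma adjusted p = 0.0318), though not without HC-1 (0.0512) or HC-10 (0.0742). Foxj1, the main transcription factor of motile cilia, was under the filter, with 0.875 ± 0.0819 FPKM in cKO and 1.18 ± 0.392 FPKM in WT. Uncalled genes of this list went both ways. Ccno had 4.78 ± 0.713 FPKM in cKO and 9.68 ± 7.98 FPKM in WT (-0.39, limma adjusted p = 0.743). Cfap126 had 2.90 ± 0.420 FPKM in cKO and 5.84 ± 3.28 FPKM in WT (-0.68, adjusted p = 0.233). HC-10 was the lowest WT library for both (0.951 and 2.27 FPKM). Dnaic1, under the filter, stood at 47.8% of WT with no overlap. Rsph4a stood at 133% (0.34, adjusted p = 0.520) and Rsph9 at 110% (0.12, adjusted p = 0.559).

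Of the IQ motif and calmodulin list (10 tested of 17; 1 rose, 1 fell, median 0.12), Iqgap1, a scaffold protein of the actin cytoskeleton, rose to 31.8 ± 1.59 FPKM in cKO, against 21.3 ± 1.61 FPKM in WT (log2 fold change 0.56, SE 0.08, limma adjusted p = 0.00521). Calm2, a calmodulin gene, fell to 763 ± 70.0 FPKM in cKO, against 1049 ± 102 FPKM in WT (-0.46, SE 0.10, limma adjusted p = 0.0207), but not without HM-5 (0.0907), HM-16 (0.0850), HC-1 (0.0643) or HC-10 (0.0677). In the list around Nkain2 (6 tested of 15; 1 rose, 0 fell, median 0.25), Atp1b2, a beta subunit of the sodium-potassium ATPase, rose to 25.2 ± 4.13 FPKM in cKO, against 13.4 ± 0.720 FPKM in WT (0.86, SE 0.12, limma adjusted p = 0.00501). Nkain3, the paralog of Nkain2, had 3.22 ± 0.575 FPKM in cKO and 2.78 ± 0.546 FPKM in WT (0.16, adjusted p = 0.517).

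By Pearson's r over the 6 libraries with the mean z score of the 8 genes, the most alike of the tested non-member genes were Ccdc155 (r = 0.9995), Ercc1 (0.998), Gpr27 (0.995), Eed (0.994) and Nxf1 (0.994). Ccdc155 encodes a meiotic nuclear envelope protein, Ercc1 a DNA excision repair protein, Gpr27 an orphan receptor, Eed a Polycomb subunit and Nxf1 an mRNA export factor. All were lower in cKO, from 59.95% of WT for Ccdc155 to 80.6% for Eed. Of all tested genes, 302 (3.23%) had an r of at least 0.95. The points are 3 cKO and 3 WT libraries, so the measure chiefly separates the groups, and it is given as a description.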

How the data were processed

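Cortex RNA of 3 cKO and 3 WT libraries (embryonic day 12.5) was measured by RNA-seq. Per the submitters' processing notes, the genome build was mm10, and DESeq2 1.22.1, R 3.4.1, featureCounts 1.6.1, STAR 2.5.4b and bcl2fastq 1.8.4 are listed with no role or order; the annotation used for counting is not given in the sources used here. Per the file headers, the deposited table of 14379 rows holds FPKM per library, the authors' mean normalized count per row (a signal), FDR, p-value and log2 fold change. The authors' comparison columns were not used for results.

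The members and the gene lists were chosen with earlier results of these data known. One row per symbol was kept (the highest mean normalized count), and symbols with at least 1 FPKM in at least 3 libraries were tested with limma 3.58.1 (trend) in R 4.3.3 on log2(FPKM + 1), adjusted by Benjamini-Hochberg over 9359 symbols; an adjusted p under 0.05 is a call. Fold changes on this scale understate those of low genes. As planned for a table without counts, no count test is the main test. Whole reads were recovered by multiplying FPKM by the row's ratio of mean normalized count to mean FPKM and dividing by the library's step, which gave whole numbers within 0.001 for 100% of values; voom on them is an alternative. Reads without molecular identifiers give counting error only. Positions are from GENCODE M21 (GRCm38; 10349 of 12041 symbols matched). Named genes are the members, the targeted genes, up to 4 called genes per list with the smallest p (up to 2 where none was called) and paralogs of the member, the nearest gene on each side of a member, up to 6 called genes near each targeted gene, and the 5 most alike. Bag3, Foxj1, Ccno, Cfap126, Dnaic1, Rsph4a, Rsph9, the markers, Snora44 and Rps15a-ps4 were named after their values were seen.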

Additional observations from a re-analysis of the deposited data

How the results depend on the processing

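In cKO over WT, 72 values of the members' percent of WT under other scalings, medians, sums of rows and left-out libraries moved by no more than 1 SD. They ran from 6.70% to 8.94% for Tfap2e, 24.8% to 33.1% for Rhcg, 29.1% to 40.6% for Nkain2, 34.9% to 47.1% for Hspb8 and 50.7% to 56.6% for Iqcc. Leaving out 1 of 3 libraries moves a group mean by less than 1 SD of that group, so those values could hardly have passed the limit. Summing the rows of a symbol could change nothing, as 0 members have several rows. The limit of 1 SD is therefore no test of how robust the levels are. Scaled to library totals, 488 genes changed rather than 1685, 7 rather than 19 around Hdac1 and 5 rather than 10 relatives. Calls lost by limma were those of Clstn3 (adjusted p = 0.185), Iqgap1 (0.334), Ythdf2 (0.250), Sf3a3 (0.153), E130307A14Rik (0.0994) and Mrps30 (0.335). Those of Marcksl1, Nlgn2, Cbln1, Calm2 and Hspa8 were lost too. Calls of Fndc5, Sesn2, Trnp1, Fig4, Ppil6, Cited1, Hspa1b, Spag16, Atp1b2 and Cdhr1 held. The fit with library totals had an infinite prior df, so its test rests on the trend alone, and the median of all genes was -0.09. Leaving out 1 library gave 511 to 1773 genes, 4 to 19 around Hdac1, 2 to 4 around Hdac2 and 5 to 12 relatives. A 1 Mb window held 6 calls around Hdac1 and 0 around Hdac2 (1 gene tested), and a 10 Mb window 38 and 8. Tmem234 turned round to -0.0243 with library totals, and to between -0.0638 and 0.276 with a library left out, and Rhd ran from -0.0132 to 0.434 (log2 fold changes). Of 426 values for 36 named genes, 379 kept their direction and side of the threshold, 37 lost the call and 5 gained it; the cause was not tested. No paired analysis was possible because the columns carry no replicate numbers of the labels. The cKO level of Tfap2e rests on 7 reads per library.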
